A study of Mus musculus with 6 samples.

Results

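The genes described here are 10 genes of glucose uptake and glycolysis, the glucose transporters *Slc2a1* and *Slc2a4*, the hexokinases *Hk1* and *Hk2*, *Pfkm*, *Pfkfb2*, *Aldoa*, *Pkm* and the lactate dehydrogenase genes *Ldha* and *Ldhb*. They were chosen by name for their place in the pathway and matched by symbol to 1 Ensembl identifier each, so they are 10 of 54232 identifiers in the count files. All 10 passed the filter on low counts and are among the 14133 genes tested. The samples were heart ventricle RNA from 6 WT mice of strain C57BL/6J, all fed a western diet (WD). After 15 weeks of diet, 3 mice were needle-fed Tributyrin at 5 g/kg body weight for 3 weeks (WD + Tributyrin) and 3 received the vehicle, which the sample labels call PBS (WD + vehicle). Tributyrin is a triglyceride of butyrate, a short-chain fatty acid that gut bacteria make from fiber. The labels give neither age nor sex, and every library held counts of the Y-linked gene *Ddx3y* (1571 to 2559) and almost none of *Xist* (0 to 6). The comparison asked which heart transcripts differed between treated and untreated mice on the same diet, in a model of early cardiac dysfunction with obesity.

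Glucose crosses the membrane of the heart muscle cell through GLUT1, the basal carrier, and through GLUT4, which insulin and contraction bring from internal vesicles to the surface. Hexokinase traps it as glucose 6-phosphate, phosphofructokinase commits it to glycolysis, and pyruvate kinase ends the pathway with pyruvate, which lactate dehydrogenase exchanges with lactate. The adult heart takes most of its energy from fatty acids, and obesity and diets rich in fat are known to lower its use of glucose further.

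None of the 10 genes passed the test between the groups. In the quasi-likelihood test of edgeR, adjusted by Benjamini-Hochberg over all genes, 0 of 10 passed an FDR of 10% and 0 passed 5%, where the share of all genes tested that passed was 0.0% at either threshold. An unadjusted p under 0.05 was found for 0 of the 10, against 4.25% of all genes tested. DESeq2 and limma-voom also gave 0 of the 10 at 10% and 0 at an unadjusted p under 0.05. The mean was higher with Tributyrin for 7 genes and lower for 3, and the median log2 fold change (Tributyrin over vehicle) was 0.04, where 49.6% of all genes tested were above 0. All 10 of the 95% intervals from edgeR spanned 0, and their limits lay between -0.33 and 0.29 on the log2 scale, or 0.795-fold and 1.23-fold. A larger change of the mean RNA level therefore lay outside the interval of each of these genes. In bulk tissue, fewer cells of a type and less RNA per cell cannot be told apart.

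**Figure D1:**
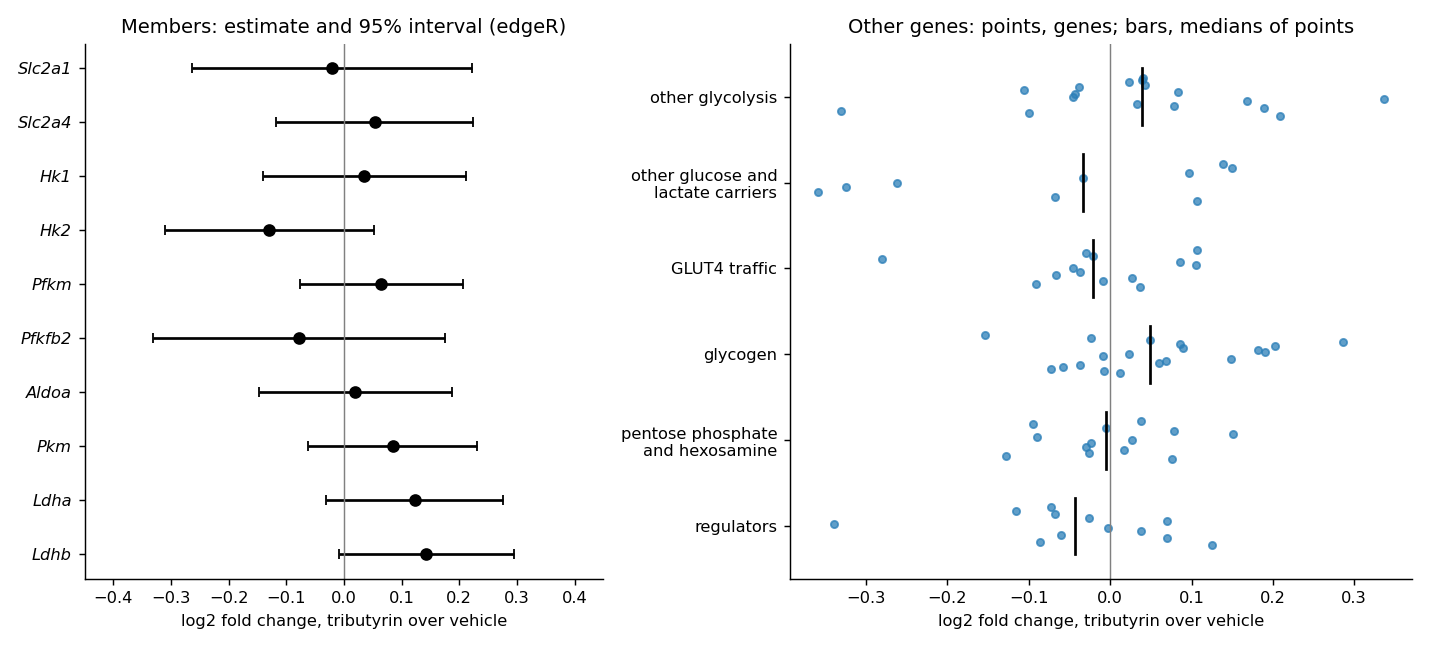
Log2 fold change, Tributyrin over vehicle, on the horizontal axes. On the left, points are the estimates for the 10 genes and bars their 95% intervals from edgeR (3 mice per group), all of which cross 0. On the right, each point is another gene of glucose metabolism and each bar the median of the points drawn for its list, and *Slc16a3* and *Mlxipl* are among the lowest points at -0.36 and -0.34. Genes not reported here are not drawn.

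The libraries held 20369746 to 32734485 counts, of which mitochondrial transcripts took 23.6% to 28.8%. The 10 genes together took between 0.717% and 0.755% of the counts. Ventricular cardiomyocyte markers were present in every library (8 of 8 genes, summed 52449 to 56596 CPM). Within that list, 4 genes had an unadjusted p under 0.05 in edgeR, *Tnnt2* (log2 fold change 0.23), *Tnni3* (0.21), *Pln* (0.24) and *Actc1* (-0.21), and 0 passed 10%. Atrial markers (7 genes, all detected and 6 tested) summed to 201 and 191 CPM in vehicle replicates 1 and 2, against 66.0 in vehicle replicate 3 and 33.6 to 68.9 in the Tributyrin libraries. *Nppa* of that list did not follow the sum. Its normalized counts were 554, 485 and 1046 with vehicle and 296, 416 and 731 with Tributyrin. Endothelial markers (7 of 7 tested, 5 of them with a higher mean) summed to 860 to 890 CPM with vehicle and 910 to 1007 CPM with Tributyrin. Of these 7 genes, the groups lay apart in *Fabp4* alone (normalized counts 7838 to 8206 with vehicle and 8595 to 11433 with Tributyrin). Over all genes tested, 8.91% were apart in either direction. Fibroblast markers summed to 867 to 979 CPM with vehicle and 777 to 961 CPM with Tributyrin. Summed macrophage markers (128 to 167 CPM), smooth muscle and pericyte markers (720 to 879 CPM), erythroid markers (383 to 943 CPM) and Schwann markers (15.0 to 16.6 CPM) overlapped between the groups. At an unadjusted p under 0.05 in edgeR stood 5 of 6 tested atrial markers and 2 of 7 fibroblast markers, all lower with Tributyrin. The same held for 2 of 7 smooth muscle and pericyte markers and 1 of 7 endothelial markers (*Fabp4*), all higher. The macrophage, erythroid, skeletal muscle and Schwann lists had 0, and the share of all genes tested was 4.25%. Normalized counts of the groups were also apart in 2 ventricular, 1 smooth muscle and pericyte and 1 Schwann marker, all higher with Tributyrin. They were apart in 1 atrial and 1 fibroblast marker, both lower. Adipocyte markers stayed at or under 2.86 CPM in sum with *Ucp1* at 0, and skeletal muscle markers (3 of 7 tested) summed to 1475 to 2381 CPM with vehicle and 1184 to 1715 CPM with Tributyrin, most of it *Ckm* and *Acta1*, which heart also expresses, with *Myh4* at most at 1.2 normalized counts. The part of these markers in the values of the 10 genes was not tested. Without the atrial-rich vehicle libraries, 1 vehicle mouse stood against 3, its spread was taken from the Tributyrin mice, and 0 of the 10 genes had an unadjusted p under 0.05 in edgeR.

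The isozymes of this pathway are close relatives, so it was checked whether reads can tell them apart. The reads were 50 bases long, and no 50-base stretch of any of the 10 genes was found in another of the 10. For each pair below, the 90 coding bases around the longest run that the 2 coding sequences share are printed, from the longest protein-coding transcript of each gene in GENCODE M21 (GRCm38), with the shared run in capitals. The run is 25 bases in the transporter pair, 27 in the hexokinase pair and 18 in the lactate dehydrogenase pair, each shorter than a read. The transporter stretches lie in exon 3 of *Slc2a4* (chr11:69946307-69946396, minus strand) and exon 3 of *Slc2a1* (chr4:119132173-119132262, plus strand) and have 69 of 90 bases in common:
Slc2a4: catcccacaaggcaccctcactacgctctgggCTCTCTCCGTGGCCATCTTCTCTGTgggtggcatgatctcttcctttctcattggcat
Slc2a1: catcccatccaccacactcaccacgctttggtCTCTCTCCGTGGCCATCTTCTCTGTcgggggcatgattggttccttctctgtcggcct
The hexokinase stretches run over exons 14 and 15 of *Hk2* (chr6:82730885-82731070, minus strand, intron included in the span) and exons 16 and 17 of *Hk1* (chr10:62275798-62281055, minus strand) and share 71 of 90 bases:
Hk2: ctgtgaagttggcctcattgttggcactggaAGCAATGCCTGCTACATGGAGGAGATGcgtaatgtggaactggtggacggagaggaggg
Hk1: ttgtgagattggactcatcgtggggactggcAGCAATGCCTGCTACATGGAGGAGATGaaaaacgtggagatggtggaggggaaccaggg
The lactate dehydrogenase stretches run over exons 6 and 7 of *Ldha* (chr7:46851947-46854024, plus strand) and exons 6 and 7 of *Ldhb* (chr6:142492575-142494147, minus strand) and share 71 of 90 bases:
Ldha: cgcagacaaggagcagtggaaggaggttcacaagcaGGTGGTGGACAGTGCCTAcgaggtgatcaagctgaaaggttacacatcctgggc
Ldhb: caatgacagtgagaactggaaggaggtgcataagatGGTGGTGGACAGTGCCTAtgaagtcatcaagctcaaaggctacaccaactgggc
The 10 genes shared such stretches with other genes. The share of a gene's 50-base stretches also found in another gene was 25.8% for *Pkm*, 20.99% for *Ldhb*, 17.3% for *Pfkfb2*, 9.26% for *Ldha*, 8.83% for *Pfkm*, 6.43% for *Aldoa* and at most 1.54% for the other 4 genes. Reads from those stretches may be counted elsewhere or not at all, so the levels of these genes are uncertain to that extent. *Pkm* also overlaps *Gm49759* on its own strand over 767 exon bases, and that gene held 86 to 134 counts. *Pfkfb2* overlaps *Gm29427* on its own strand over 1262 exon bases (0 to 4 counts), and *Pfkm* overlaps *Gm26513* over 341 (0 to 7 counts). The genes that share a stretch with *Ldha* number 328 and together held up to 257715 counts in a library, against 13245 to 22103 for *Ldha* itself. The 3 that share one with *Pfkfb2* held up to 743 counts, against at most 1078 for *Pfkfb2*.

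Of the carriers, GLUT4 was by far the more abundant transcript, and neither carrier passed the test. *Slc2a4* (ENSMUSG00000018566, chr11:69942539-69948188, minus strand) encodes GLUT4. Its normalized counts, the counts divided by the size factor of each library, were 13083, 13176 and 13057 in the WD + vehicle mice and 14155, 12197 and 14420.4 in the WD + Tributyrin mice. The vehicle mice lay within a narrow range, and the Tributyrin mice lay on either side of it, with replicate 2 below all vehicle mice. The means were 13105 ± 62.3 with vehicle and 13591 ± 1214 with Tributyrin (SD, n = 3 each), a coefficient of variation of 0.476% and 8.94%. Counting alone gave a relative SD of up to 0.975%, which is more than the spread of the vehicle mice. The log2 fold change was 0.05 with a standard error of 0.08 and a 95% interval from -0.12 to 0.22. With 1 mouse left out it ran from 0.01 (without Tributyrin replicate 3) to 0.12 (without Tributyrin replicate 2), and with library size alone as the scaling it was -0.02.

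*Slc2a1* (ENSMUSG00000028645, chr4:119108711-119137983, plus strand) encodes GLUT1. The 3 vehicle mice had normalized counts of 346, 308 and 374, and the Tributyrin mice 323, 361 and 326. The 3 Tributyrin mice lay inside the range of the vehicle mice. The means were 343 ± 33.2 and 336 ± 21.3 (SD, n = 3 each), and the log2 fold change was -0.02 (standard error 0.11, 95% interval -0.26 to 0.22). It was the gene with the fewest counts of the 10, and counting alone gave a relative SD of up to 5.93%. Its fold change was above 0 without vehicle replicate 3 (0.05), without Tributyrin replicate 1 (0.02) and without Tributyrin replicate 3 (0.01).

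Hexokinase II had the lowest fold change of the 10. *Hk2* (ENSMUSG00000000628, chr6:82725025-82774454, minus strand) encodes the hexokinase typical of insulin-sensitive muscle, which binds to mitochondria. In normalized counts it stood at 8544, 7766 and 8815 with vehicle and 8308, 7512 and 7128 with Tributyrin. Tributyrin replicates 2 and 3 lay below every vehicle mouse, and replicate 1 lay among them. The mean was 8375 ± 544 with vehicle and 7650 ± 602 with Tributyrin (SD, n = 3 each), 8.66% lower, and the log2 fold change was -0.13 (standard error 0.08, 95% interval -0.31 to 0.05). The exact permutation test gave p = 0.2 (two-sided), where 3 mice against 3 can give no p under 0.1. *Hk2* was below 0 under every alternative run, between -0.21 and -0.08, and with library size as the only scaling its unadjusted p in edgeR was 0.0427 (adjusted p 0.804). Under that scaling the median log2 fold change of all genes was -0.07, and 5.65% of all genes had an unadjusted p under 0.05.

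*Hk1* (ENSMUSG00000037012, chr10:62268855-62379908, minus strand) encodes hexokinase I, the form found in most tissues. Normalized counts came to 4562, 4512 and 5145 with vehicle and 4559, 5132 and 4867 with Tributyrin. The values of the groups were interleaved. The means were 4740 ± 352 and 4853 ± 287 (SD, n = 3 each), and the log2 fold change was 0.04 (standard error 0.08, 95% interval -0.14 to 0.21). The fold change ran from -0.01 without Tributyrin replicate 2 to 0.10 without vehicle replicate 3. It was -0.09 without the atrial-rich vehicle libraries, which left vehicle replicate 3, the highest of the 6 mice for this gene, alone against 3.

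*Pfkm* (ENSMUSG00000033065, chr15:98092589-98132451, plus strand) encodes muscle phosphofructokinase, the enzyme of the committed step. By mouse, the normalized counts were 26333, 26380.3 and 26123 with vehicle and 28118, 26634 and 27649 with Tributyrin. Every Tributyrin mouse lay above every vehicle mouse, though Tributyrin replicate 2 was close to the vehicle mice. The means were 26279 ± 137 and 27467 ± 758 (SD, n = 3 each), 4.52% higher with Tributyrin, and the log2 fold change was 0.06 (standard error 0.06, 95% interval -0.08 to 0.21). Counting alone gave a relative SD of up to 0.690%, more than the coefficient of variation of the vehicle mice (0.521%). With library size alone as the scaling it was -0.01.

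*Pfkfb2* (ENSMUSG00000026409, chr1:130689182-130729253, minus strand) encodes the cardiac enzyme that makes and breaks down fructose 2,6-bisphosphate, the activator of phosphofructokinase. Normalized counts of 741, 836 and 844 were found with vehicle and 698, 902 and 688 with Tributyrin. Tributyrin replicates 1 and 3 were the lowest of the 6 mice and replicate 2 was the highest. The means were 807 ± 57.1 and 763 ± 120.4 (SD, n = 3 each), and the log2 fold change was -0.08 (standard error 0.11, 95% interval -0.33 to 0.18). With 1 mouse left out it ran from -0.22 (without Tributyrin replicate 2) to -0.0061 (without Tributyrin replicate 3), and it was -0.0122 without Tributyrin replicate 1.

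*Aldoa* (ENSMUSG00000030695, chr7:126795234-126800751, minus strand) encodes the muscle form of aldolase, which splits fructose 1,6-bisphosphate. Its normalized counts were 61989, 65933 and 61323 with vehicle and 59778, 63255 and 68744 with Tributyrin. The lowest and the highest of the 6 mice were both in the Tributyrin group. The means were 63082 ± 2492 and 63926 ± 4521 (SD, n = 3 each), and the log2 fold change was 0.02 (standard error 0.08, 95% interval -0.15 to 0.19). It was -0.03 without Tributyrin replicate 3, -0.05 with library size alone as the scaling and -0.0003 with mitochondrial transcripts left out of the library size.

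*Pkm* (ENSMUSG00000032294, chr9:59656368-59679375, plus strand) encodes the muscle pyruvate kinases M1 and M2, which arise by splicing and are not separated by counts per gene. In order of replicate, normalized counts were 25831, 26402 and 25219 with vehicle and 27171, 26347 and 28544 with Tributyrin. Tributyrin replicate 2 lay just under vehicle replicate 2, and the other Tributyrin mice lay above all vehicle mice. The means were 25817 ± 592 and 27354 ± 1109.9 (SD, n = 3 each), 5.95% higher with Tributyrin, and the log2 fold change was 0.08 (standard error 0.07, 95% interval -0.06 to 0.23). With library size alone as the scaling it was 0.01.

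The lactate dehydrogenase genes had the highest fold changes of the 10. *Ldhb* (ENSMUSG00000030246, chr6:142490249-142507957, minus strand) encodes the H subunit, which makes up most of the enzyme in heart. The mice had normalized counts of 30065, 29155 and 27153 with vehicle and 31842, 31011 and 32437 with Tributyrin. Every Tributyrin mouse lay above every vehicle mouse, at 7.71% to 12.7% above the vehicle mean. The means were 28791 ± 1489.5 and 31763 ± 716 (SD, n = 3 each), 10.3% higher with Tributyrin. The log2 fold change was 0.14 with a standard error of 0.07 and a 95% interval from -0.01 to 0.29. The adjusted p was 0.999 in edgeR, with an unadjusted p of 0.0628, the smallest of the 10. The exact permutation test gave p = 0.1 (two-sided), the smallest p that 3 mice against 3 allow. Under the alternatives the fold change ran from 0.07 to 0.22, with adjusted p from 0.487 to 1.00. The 0.22 came from leaving out the atrial-rich vehicle libraries, which set vehicle replicate 3, the lowest of the 6 mice for this gene, alone against 3 Tributyrin mice.

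*Ldha* (ENSMUSG00000063229, chr7:46841475-46855627, plus strand) encodes the M subunit, which is typical of skeletal muscle. Its normalized counts were 17079.6, 17139 and 16455 with vehicle and 18797, 17152 and 19183 with Tributyrin. All Tributyrin mice lay above all vehicle mice, but Tributyrin replicate 2 and vehicle replicate 2 lay closer together than the counting error, a relative SD of up to 0.869%. The means were 16891 ± 379 and 18378 ± 1079 (SD, n = 3 each), 8.80% higher with Tributyrin. The log2 fold change was 0.12 (standard error 0.07, 95% interval -0.03 to 0.28), with an unadjusted p of 0.107 and an adjusted p of 0.999 in edgeR. Its fold change under the alternatives lay between 0.05 and 0.17.

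**Figure D2:**
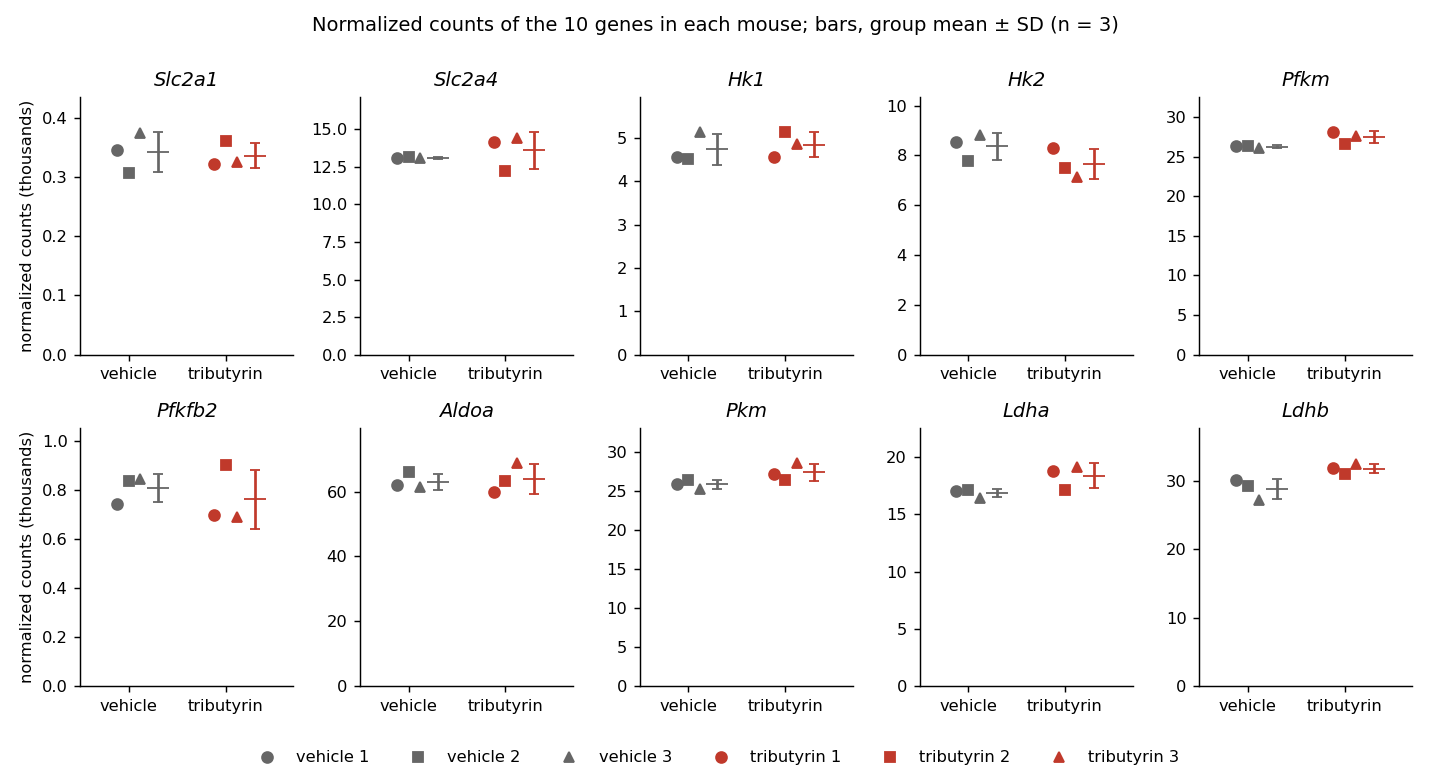
Normalized counts of each of the 10 genes, 1 panel per gene with its own axis from 0 (in units of 1000 counts), in 3 mice given vehicle (grey) and 3 given Tributyrin (red). Symbols give the replicate number and bars the group mean ± SD, and the groups lie apart only in *Pfkm*, *Ldha* and *Ldhb*, where the means differ by 4.52%, 8.80% and 10.3%.

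The groups did not overlap in 3 of the 10 genes (*Pfkm*, *Ldha* and *Ldhb*), each higher with Tributyrin, and no gene of the 10 was apart in the other direction. Over all genes tested, 4.26% were apart with Tributyrin higher, 4.65% with Tributyrin lower and 8.91% in either direction. The number rested on the scaling. It was 4 genes with TMM-scaled CPM (also *Pkm*), where 4.34% of all genes were apart with Tributyrin higher. With mitochondrial transcripts left out of the library size it was 2 (*Pfkm* and *Ldhb*), against 3.38% of all genes, and with library size alone 1 (*Ldhb*), against 1.75%. With library size alone, 3 of the 10 fold changes were above 0 and the median of all genes was -0.07.

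The small number of mice left single libraries much weight. Of the treated mice, replicate 1 was the lowest or the highest of its group in 5 of the 10 genes, replicate 2 in 8 and replicate 3 in 7. Of the vehicle mice, replicate 1 was so in 2 of the 10, replicate 2 in 8 and replicate 3 in 10. Every gene has a lowest and a highest mouse in each group, and the share over all genes was not counted. Without Tributyrin replicate 2, 3 of the 10 genes had an unadjusted p under 0.05 in edgeR. Their log2 fold changes were 0.17 for *Ldha*, 0.16 for *Ldhb* and -0.22 for *Pfkfb2*, and the smallest adjusted p in edgeR was 0.425. Over all genes, leaving out Tributyrin replicate 2 gave 1360 at an unadjusted p under 0.05 in edgeR (9.56%), where there were 600 with all mice (4.25%). No label gives a reason to leave this mouse out.

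Per exon length, the 10 genes ran over a wide range of levels. On the scale of CPM per kb of exon, the medians of the 6 libraries were 819 for *Aldoa*, 741 for *Ldhb*, 302 for *Pfkm*, 201 for *Pkm*, 197 for *Ldha*, 144 for *Slc2a4*, 51.2 for *Hk2*, 20.99 for *Hk1*, 4.13 for *Pfkfb2* and 3.64 for *Slc2a1*. Among these 10, *Pfkm*, *Aldoa*, *Pkm* and the lactate dehydrogenase genes lay above the carriers and the hexokinases, and *Slc2a1* and *Pfkfb2* lay lowest. Between neighbours in this order the ranges overlapped for *Aldoa* and *Ldhb*, for *Pkm* and *Ldha* and for *Pfkfb2* and *Slc2a1*. *Aldoa* was above *Ldhb*, and *Pfkfb2* above *Slc2a1*, within each of the 6 libraries, while *Pkm* was above *Ldha* in 4 of 6. The other 6 neighbouring pairs had ranges that were apart.

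For phosphofructokinase, aldolase and pyruvate kinase, the other isoforms reported here lay far below those of muscle. Liver-type *Pfkl* had a median of 25.0 CPM per kb and platelet-type *Pfkp* 3.10, against 302 for *Pfkm*. *Aldoc* was at 0.0436, against 819 for *Aldoa*. The liver and red cell pyruvate kinase *Pklr* had a median of 0, as had the hexokinase *Hkdc1*, and *Hk3* was at 0.185. The bifunctional enzymes *Pfkfb1*, *Pfkfb3* and *Pfkfb4* were at 5.10, 1.47 and 0.579, so *Pfkfb1* had a higher median than *Pfkfb2* (4.13). The ranges of *Pfkfb1* (2.98 to 6.42) and *Pfkfb2* (3.60 to 4.74) overlapped, and in vehicle replicate 2 *Pfkfb1* was the lower. The carriers *Slc2a12* and *Slc2a3* were at 1.72 and 0.267. Of the lactate carriers, *Slc16a1* (MCT1) was at 59.4 and *Slc16a3* (MCT4) at 0.482.

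**Figure D3:**
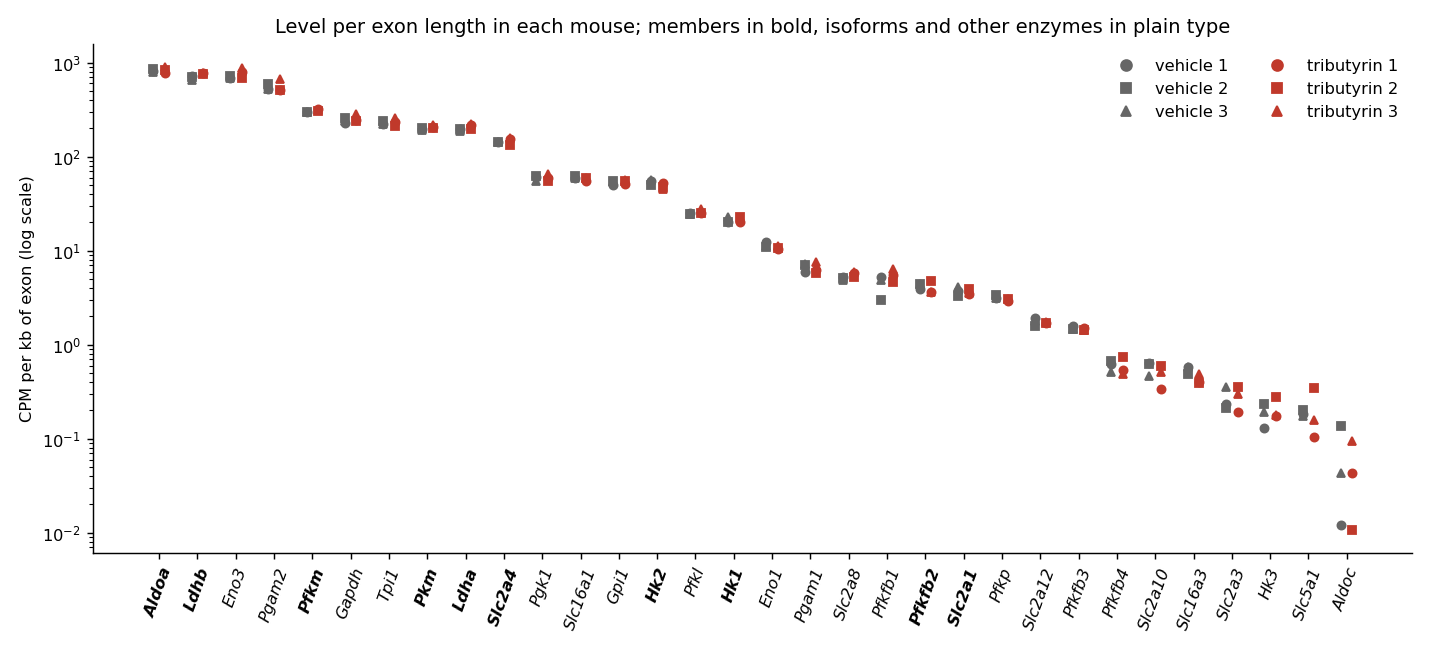
CPM per kb of exon on a log axis for the 10 genes (bold) and for other enzymes and carriers of glycolysis, with 3 vehicle mice (grey) and 3 Tributyrin mice (red) per gene. *Aldoa* and *Ldhb* lie near 819 and 741, and *Slc2a1* near 3.64. *Hkdc1* and *Pklr*, at a median of 0, and genes not reported here are not drawn.

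The balance between isozymes within a library does not depend on how libraries are scaled. The ratio of *Slc2a4* to *Slc2a1* per kb of exon was 38.1, 43.1 and 35.2 with vehicle and 44.2, 34.1 and 44.6 with Tributyrin. The groups overlapped, and the mean log2 ratio differed by 0.07 (standard error 0.15, two-sided exact permutation p = 0.7). With 1 mouse left out this difference was at most 0.20, which was found without Tributyrin replicate 2, and at least 0.0042, without vehicle replicate 3. The ratio of *Hk2* to *Hk1* was 2.68, 2.46 and 2.45 with vehicle and 2.61, 2.09 and 2.09 with Tributyrin. Tributyrin replicates 2 and 3 had the lowest ratios and replicate 1 lay among the vehicle mice, with a difference in log2 ratio of -0.17 (standard error 0.11, exact permutation p = 0.3). With 1 mouse left out it ran from -0.27 (without Tributyrin replicate 1) to -0.11 (without Tributyrin replicate 2). The ratio of *Ldha* to *Ldhb* was 0.269, 0.279 and 0.287 with vehicle and 0.280, 0.262 and 0.281 with Tributyrin. This was the steadiest of the 3 ratios, with a difference in log2 ratio of -0.02 (standard error 0.04, exact permutation p = 0.7). GLUT4 transcripts thus exceeded those of GLUT1 in all 6 mice, *Hk2* exceeded *Hk1*, and *Ldhb* exceeded *Ldha*. The groups overlapped in each of the 3 ratios. The permutation test of 3 mice against 3 can give no p under 0.1, so it could not decide whether a ratio differed.

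**Figure D4:**
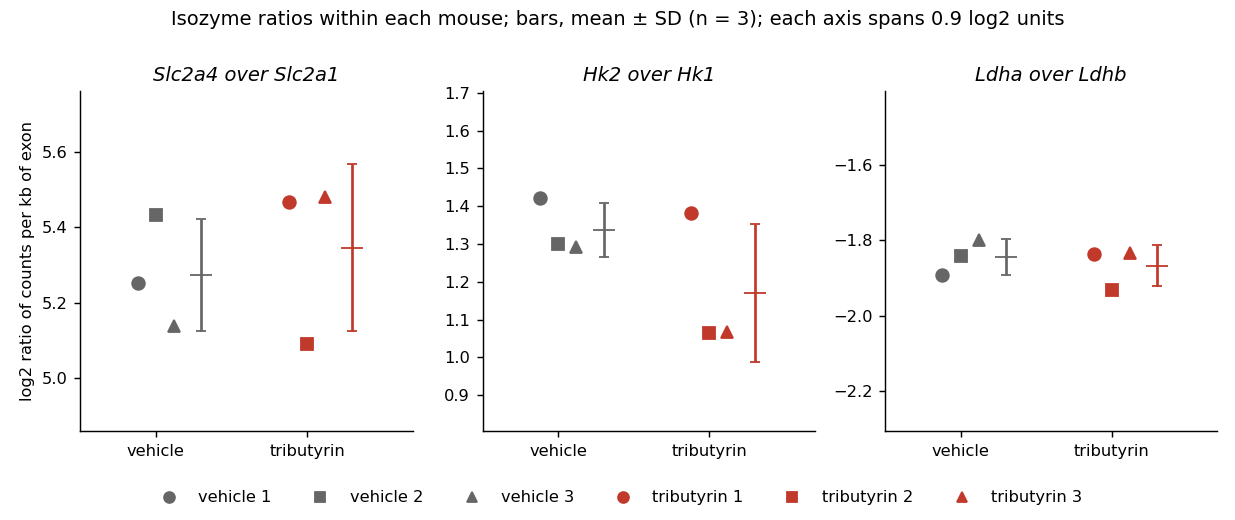
Log2 ratio of counts per kb of exon for 3 isozyme pairs, 1 panel per pair with axes of equal span, in 3 mice given vehicle (grey) and 3 given Tributyrin (red), with bars for the mean ± SD. The groups overlap in every panel, and the spread is smallest for *Ldha* over *Ldhb*, which lies between 0.262 and 0.287 on the linear scale.

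Promoter sequence was not used to choose the genes. RefSeq (GRCm38.p6) gives 19 promoter windows, from 250 bases before to 50 after a start site, for 9 of the 10 genes (not *Slc2a4*), and some windows of 1 gene overlap. The letters ACGTG, the core to which hypoxia-inducible factor binds, were found on either strand in 11 of the 19 windows and in at least 1 window of 8 genes (all but *Ldhb*), where 19.6% of 32851 windows of all genes hold them. The E-box CACGTG, which contains those letters and to which carbohydrate-response and MYC-family factors bind, was in 3 windows (*Pfkfb2*, *Ldha* and *Pfkm*), against 7.15% of all windows. GGGCGG was in 7 of 19 (35.7% of all windows), CCAAT in 7 (37.4%) and TATAAA in 1 (13.6%). The lactate dehydrogenase pair is printed because these genes had the smallest unadjusted p of the 10, and the pair shows windows with and without these letters. Capitals mark ACGTG or CCAAT on either strand. The window of *Ldha* with the most matches (chr7:46845554-46845853, plus strand) holds ACGTG at 5 positions counted over the 2 strands, and no CCAAT. The 2 CACGTG, at -145 and -48 from the start site, read the same on either strand. Each therefore gives 2 of these positions and is not 2 separate sites. The window of *Ldhb* (chr6:142507908-142508207, minus strand) holds no ACGTG and 1 CCAAT, at -53:
Ldha promoter: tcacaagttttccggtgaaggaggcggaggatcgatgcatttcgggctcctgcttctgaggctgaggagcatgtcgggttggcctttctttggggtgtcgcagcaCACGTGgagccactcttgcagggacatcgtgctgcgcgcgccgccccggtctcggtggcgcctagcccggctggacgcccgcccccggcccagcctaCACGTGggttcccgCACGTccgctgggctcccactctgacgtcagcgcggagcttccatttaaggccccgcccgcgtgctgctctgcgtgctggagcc
Ldhb promoter: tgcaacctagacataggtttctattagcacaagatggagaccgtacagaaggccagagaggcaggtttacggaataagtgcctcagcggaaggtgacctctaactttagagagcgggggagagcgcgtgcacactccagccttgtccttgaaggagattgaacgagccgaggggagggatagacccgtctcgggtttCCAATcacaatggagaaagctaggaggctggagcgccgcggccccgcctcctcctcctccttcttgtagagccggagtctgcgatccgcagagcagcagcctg
A match of letters is a description of the window and not a binding site.

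The wider pathway gave no call either. Of 89 other genes of glucose metabolism in 6 lists, 85 were tested and 0 passed an FDR of 10% in edgeR. The log2 fold change from edgeR was above 0 for 43 and below 0 for 42, with a median of 0.01. An unadjusted p under 0.05 was found for 3 genes, or 3.53%, against the 4.25% of all genes tested. DESeq2, run without the filter on low counts, gave 0 past 10% and 3 of 87 genes at an unadjusted p under 0.05 (3.45%, against 1.8% of its 25581 genes). Those 25581 include genes with very few counts, so the shares are of unlike sets. With the filter, limma-voom gave 0 past 10% and 4 of 85 at an unadjusted p under 0.05 (4.71%, against 4.28%).

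Among the other glycolytic enzymes, 19 of 22 were tested, with 12 higher and 7 lower in the mean and a median log2 fold change of 0.04. *Eno3*, the muscle enolase, named after its values were seen because its level is next to that of *Ldhb*, had a log2 fold change of 0.19 (standard error 0.09). Its normalized counts were 31286, 32798 and 31047 with vehicle and 36519, 31557 and 40309.8 with Tributyrin. Tributyrin replicates 1 and 3 lay above every vehicle mouse, and replicate 2 lay among them.

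Of the other carriers of glucose and lactate (9 of 9 tested, 4 higher and 5 lower), *Slc2a8* lay highest at 0.15 (standard error 0.09) and *Slc16a3* lowest at -0.36 (standard error 0.19). The main lactate carrier *Slc16a1* was at -0.07 (standard error 0.07). In the genes that move GLUT4 vesicles (13 of 13 tested, 5 higher and 8 lower), the vesicle protein gene *Vamp3* lay highest at 0.11. *Tbc1d1*, a Rab GTPase-activating protein that holds GLUT4 inside the cell until it is phosphorylated, lay lowest at -0.28 (standard error 0.10, unadjusted p 0.0225 and adjusted p 0.999 in edgeR). Its normalized counts were 469, 488 and 429 with vehicle and 354, 421 and 366 with Tributyrin, so the groups were apart.

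The glycogen genes (19 of 19 tested, 12 with a fold change above 0 and 7 below) ran from *Ugp2* at -0.15 to the liver glycogen phosphorylase gene *Pygl* at 0.29. Those of the pentose phosphate and hexosamine pathways (13 of 14 tested, 6 higher and 7 lower) ran from *Gfpt1*, the gate enzyme of hexosamine synthesis, at -0.13 to *Rpe* at 0.15. Among glucose-responsive and glycolytic regulators (12 of 12 tested, 4 higher and 8 lower), *Arrdc4* lay highest at 0.12 and *Mlxipl*, which encodes the carbohydrate-response factor ChREBP, lowest at -0.34 (standard error 0.14, unadjusted p 0.0382 and adjusted p 0.999 in edgeR). The normalized counts of *Mlxipl* were 476, 587 and 534 with vehicle and 343, 509 and 409 with Tributyrin, and the groups overlapped.

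By level across the 6 libraries, the genes most like *Ldhb* among 9698 genes with a mean of at least 5 CPM were *C330018D20Rik*, *Mcrs1* and *Zscan29*, with a Pearson correlation of log2 CPM of 0.994, 0.990 and 0.987 over 6 libraries. These libraries include the 2 groups, and the 3 genes were picked as the closest of all compared.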

How the data were processed

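Stranded mRNA libraries from 6 heart ventricle samples (3 WD + Tributyrin, 3 WD + vehicle) were read as 50-base single-end reads. The authors deposited whole-number read counts per Ensembl gene without normalization, made after adapter trimming, removal of poor and rRNA reads, alignment with STAR and counting with HTSeq. The submitters' processing notes name cutadapt 1.13, HTSeq 0.6.1p1, DESeq2 1.14.1 and the build mm10. The release of the annotation, the strand option of HTSeq and its treatment of reads with more than 1 match were not given in the sources used. The last can lower the counts of genes with pseudogenes.

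Totals per library were 20369746 to 32734485 counts on 54232 identifiers, of which 54165 matched GENCODE M21, and 0 lines named no gene. *Aldoa* has a second identifier in that annotation (0 to 7 counts), which was not used. No pair of libraries agreed within sampling noise (chi-square per degree of freedom 6.67 to 28.2). Samples were grouped by their labels. The titles and the study's description name 3 mice per group. The p-values of edgeR set the difference against a spread between mice that is drawn partly from all genes tested.

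Groups were compared over all genes with edgeR 4.0.16 (R 4.3.3, quasi-likelihood test, TMM, filterByExpr set to at least 10 counts and a total of at least 15, no covariate) and Benjamini-Hochberg adjustment. Normalized counts are counts divided by size factors of DESeq2 1.42.0. CPM per kb used TMM-scaled library sizes and the exon length of each gene. Isozyme ratios and single genes were also compared with two-sided exact permutation tests (Python 3.11.15, scipy 1.17.1). The fitting steps were tested on simulated counts.

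The 10 genes, the lists and the markers were chosen with earlier results of these data known, and no set test was run. The genes named were the 10, the highest and lowest fold change and any gene past 10% in each list, the isoforms, the lactate carriers, and the 3 genes most like the one with the smallest p. *Eno3*, *Ddx3y*, *Xist*, *Ucp1*, *Tnnt2*, *Tnni3*, *Pln*, *Actc1*, *Nppa*, *Fabp4*, *Ckm*, *Acta1*, *Myh4*, *Gm49759*, *Gm29427* and *Gm26513* were named outside this rule. Some genes that the rule would name are not reported here. Alternatives were size factors of DESeq2, library size alone, no filter, a mean of at least 5 CPM, DESeq2, limma-voom (limma 3.58.1), a robust prior, the replicate block and leaving out each library. For the ratios they were a prior of 0.5 counts, the replicate block and leaving out each library. Leaving mitochondrial transcripts out of the library size, and leaving out both atrial-rich libraries, were added after the data were seen.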

Additional observations from a re-analysis of the deposited data

How the results depend on the processing

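No alternative put any of the 10 genes past an FDR of 10%. Of 160 fold changes of the 10 genes under alternatives, 149 kept their sign and 11 reversed. With library size alone, *Slc2a4* was -0.0215, *Hk1* -0.0375, *Pfkm* -0.0083 and *Aldoa* -0.0544. Under that scaling 1 of the 10 genes (*Hk2*) had an unadjusted p under 0.05 in edgeR, against 5.65% of all genes tested. *Aldoa* was -0.0003 without mitochondrial transcripts in the library size, and *Hk1* was -0.0874 without both atrial-rich libraries. Leaving out each library gave log2 fold changes from -0.0959 to 0.0461 for *Slc2a1*, -0.0088 to 0.0993 for *Hk1* and -0.0306 to 0.0713 for *Aldoa*. The difference in the log2 ratio of *Ldha* to *Ldhb* then lay between -0.0463 and 0.0092. With a library left out, 0 to 3 of the 10 genes had an unadjusted p under 0.05 in edgeR, against 2.68% to 9.56% of all genes tested.

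Over all genes, those past 10% numbered 167 with no filter on low counts, 11 with DESeq2, 2 with the replicate block and 0 to 3 with a library left out. With no filter, 2 of the 87 genes tested in the other lists passed, against those 167 of 25581 genes. At an unadjusted p under 0.05 in edgeR, that setting had 9 of the 87 (10.3%), against 4.6% of all genes. The causes were not tested. Deviations from the group means of the samples numbered 1 correlated at r = 0.43, but those numbered 2 and 3 at 0.04 and -0.03, so the numbers were not taken as pairs, and not every sample correlated best with its own number. The replicate block changed no call among the 10 genes, whose fold changes ran from -0.13 to 0.14. Where a library was left out, 2 samples stood against 3, and without both atrial-rich libraries 1 against 3, with the spread pooled and the lone sample assumed to vary like the others. The depth left a counting SD of at most 5.93% for any of the 10 genes. The intervals rest on 3 mice per group and on a spread that edgeR draws partly from all genes tested (prior degrees of freedom 6.31).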
